A study of Homo sapiens with 4 samples.

Results

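The sites described here are the ChIP-seq peaks across the BICC1 locus and on to PHYHIPL, in the hg19 build of human chromosome 10. They were chosen by position, as all peaks of both deposited peak lists with a midpoint between 60150 and 61050 kb. The window itself had been picked because many peaks recurred there in these same lists, so the number and crowding of its sites are given as a description and are not tested. It held 11 of the 5060 peaks of replicate 1 and 14 of the 4955 peaks of replicate 2, which made up 15 distinct sites out of 7108. A site counted as found in both replicates, or recurring, where peaks of the 2 lists overlapped by at least 1 bp. By this rule 10 of the 15 sites recurred (66.7%), against 40.9% of all 7108 distinct sites.

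The study used Caco2, a human colorectal adenocarcinoma line that serves as a model of the intestinal epithelium, to ask which sites HNF1 occupies there. Its 4 libraries are 2 chromatin immunoprecipitations labelled HNF1 and 2 inputs made without antibody, all from this 1 line with no treatment named. Each immunoprecipitation has 1 peak list, called against the input of the same number, so the inputs enter through that calling alone. The labels do not say whether the replicates were separate cultures, and a single list per library allows no standard deviation. The antibody field names HNF1, but the extraction text names FOXA2, and the catalogue number in the field is one under which an antibody to FOXA2 was sold. The target therefore cannot be told from the labels, and the libraries are called HNF1 libraries after their titles. Replicate 1 had 11931439 tags and replicate 2 had 18469659 tags.

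HNF1, the factor named in the titles, is a homeodomain transcription factor family that binds as dimers to an inverted repeat with the consensus GTTAATNATTAAC. FOXA2 is a forkhead factor of endodermal tissues that can bind compacted chromatin and recognises sequences such as TGTTTAC. BICC1 encodes an RNA-binding protein with KH domains and a SAM domain, the vertebrate counterpart of Drosophila Bicaudal C, and loss of Bicc1 in the mouse gives cystic kidneys. PHYHIPL encodes a protein related to the phytanoyl-CoA hydroxylase-interacting protein PHYHIP.

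The gene limits used here are known to about 1 kb. BICC1 lies on the plus strand from about 60273 to 60589 kb, and PHYHIPL from about 60936 to 61008 kb. Gene order was read from the RefSeq table of GRCh38.p14, another build, for names and neighbours only. There, 6 entries start between BICC1 and PHYHIPL, of which 0 are protein-coding and 2 are long non-coding RNAs, LINC00844 among them. TFAM, which encodes the mitochondrial transcription factor A, is the nearest protein-coding gene before BICC1, and FAM13C is the next one after PHYHIPL. No hg19 exon annotation was used, so sites within a gene are not assigned to exons or introns.

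The letters of the bound sites themselves are not shown, since no hg19 genome was used here. The 250 bases before an annotated start of PHYHIPL are shown. Of BICC1 and PHYHIPL, only PHYHIPL had an entry among the promoter windows used, so no window of BICC1 is shown. Distances to the other annotated starts of the locus were not computed. RefSeq places the PHYHIPL window at chr10:59176914-59177163 in GRCh38.p14, plus strand, and these positions cannot be compared with the hg19 positions of the peaks. Whether this start is the first of the gene was not checked. The window may therefore lie inside PHYHIPL, and it is not read as the promoter of the gene.

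PHYHIPL, 250 bases before the start, 5′ to 3′: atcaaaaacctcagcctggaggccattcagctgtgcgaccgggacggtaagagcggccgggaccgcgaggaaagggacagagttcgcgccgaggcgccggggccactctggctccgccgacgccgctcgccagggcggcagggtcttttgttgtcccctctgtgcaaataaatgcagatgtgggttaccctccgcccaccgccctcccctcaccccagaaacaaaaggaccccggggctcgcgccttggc

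No capitals are used because none of the 3 motifs searched was in this window. The motifs were the HNF1 repeat GTTAATNATTAAC, its single arm GTTAAT and the forkhead sequence TGTTTAC, each on both strands, and the repeat contains the arm. Among the 35116 promoter windows of the table, 2 held the repeat (0.0057%), 6.23% held the arm and 2.98% held the forkhead sequence. The PHYHIPL window was 66.0% G or C and had 23 CG steps, against medians of 58.0% and 11 over all windows. By the hg19 gene limits the peak lay about 2 kb after the start of PHYHIPL, and the start that the table uses was not placed in hg19.

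The 10 sites found in both replicates spread over 709 kb, with 1 upstream of BICC1, 3 within the gene, 5 between BICC1 and PHYHIPL and 1 just inside PHYHIPL. By the share of peaks that recurred, 10 of 11 replicate 1 peaks had a partner (90.9%), against 57.5% over the whole replicate 1 list. In replicate 2 it was 10 of 14 (71.4%), against 58.6% over that whole list. The window was picked for its recurring peaks, so nothing is read from these differences. The strength of a peak is its deposited score, a rounded tag number per 10000000 tags of the library. The intervals given with scores are exact Poisson 95% intervals on the approximate number of tags. They cover counting error in 1 library and not the spread between cultures.

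**Figure D1:**
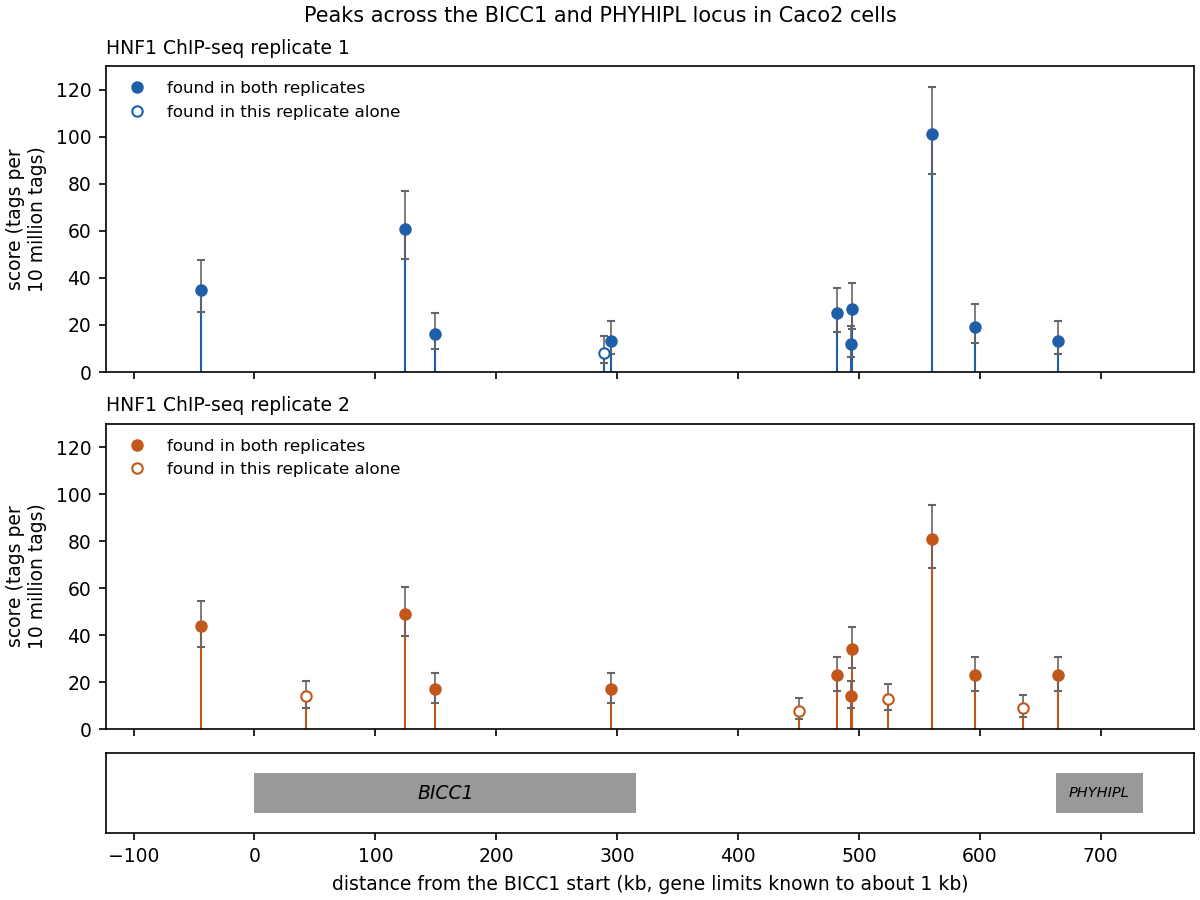
Scores of all peaks (tags per 10000000 tags, vertical axis from 0) against the distance from the BICC1 start in kb, in replicate 1 (upper panel) and replicate 2 (middle panel), with the gene bodies of BICC1 and PHYHIPL below. Filled points are sites found in both replicates, open points those found in 1, bars are Poisson 95% intervals, and the highest point in both panels is the site 560 kb after the BICC1 start with scores of 101 and 81.

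Upstream of BICC1 there was 1 site, about 44 kb before the gene start at 60228412 to 60228638. It scored 35 in replicate 1 (25.4 to 47.6) and 44 in replicate 2 (34.8 to 54.5). These scores ranked 310 and 59 in their lists, so the site stood in the upper part of both. It was also the first peak of either list in the window. The next peaks of both lists further upstream lay 489 kb before the gene start and scored 21 and 10.

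No peak of either list lay close to the BICC1 start itself. The nearest were the upstream site and a peak 43 kb inside the gene, at 60315743 to 60315969, which was found in replicate 2 alone with a score of 14 (9.2 to 20.6). What replicate 1 held at that position is not known, because the lists give no value where no peak was called. The calling asked for at least 9 tags per peak in replicate 1 and 13 in replicate 2, which correspond to scores of 7.54 and 7.04, although both lists hold scores down to 6.

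Within BICC1 the strongest site lay 124 kb after the gene start, at 60397243 to 60397469. It scored 61 in replicate 1 (48.0 to 76.9) and 49 in replicate 2 (39.7 to 60.5). By rank it was number 57 of the whole list in replicate 1 and number 44 in replicate 2, and it was the third and the second highest peak of chromosome 10. The intervals of the replicates overlap.

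The other 2 recurring sites of BICC1 were weaker. One lay 24.9 kb further on, at 60422192 to 60422418, and scored 16 in replicate 1 (9.59 to 24.9) and 17 in replicate 2 (11.4 to 23.8). The other lay at 60567637 to 60567874, about 21 kb before the end of the gene, and scored 13 (7.66 to 21.8) and 17 (11.4 to 23.8). Both were above the median of their lists, which was 12 in replicate 1 and 11 in replicate 2. The intervals of the pair overlap in each replicate, so their order was not resolved at this depth. A further peak 5.80 kb before the last of them, at 60561888 to 60562030, was called in replicate 1 alone and had the lowest score of the locus in that list, 8 (4.02 to 15.4).

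The 3′ part of the gene and its flank held long stretches with no peak. From the site at 60422192 to the weak replicate 1 peak at 60561888 there were 140 kb without a peak of either list. From the site near the end of BICC1 to the next peak, at 60722942 to 60723168 and 134 kb beyond the gene, there were 155 kb. That peak belonged to replicate 2 alone and scored 8 (4.55 to 13.4). Between neighbouring sites found in both replicates the median distance over 9 gaps was 66.1 kb, and the longest gap, 187 kb, spanned the end of BICC1.

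The stretch between BICC1 and PHYHIPL held 8 of the 15 sites and the strongest of all. This was the site at 60833349 to 60833575, about 244 kb after the end of BICC1 and 103 kb before the start of PHYHIPL. It scored 101 in replicate 1 (84.1 to 121.0) and 81 in replicate 2 (68.7 to 95.3), and its score was the highest of chromosome 10 in both lists, out of 268 and 252 peaks. Over the whole lists it ranked 12 and 6. It stood 1.66 times above the next site of the locus in replicate 1 and 1.65 times in replicate 2, and in neither replicate did its interval reach that of the next site.

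Closer to BICC1, 3 recurring sites followed each other closely. The first, at 60754555 to 60754781, scored 25 in replicate 1 (17.0 to 35.9) and 23 in replicate 2 (16.4 to 30.7). The next lay 11.9 kb beyond, at 60766409 to 60766635, and scored 12 (6.41 to 19.7) and 14 (9.2 to 20.6), the lowest scores among the recurring sites in both replicates. The third, at 60767223 to 60767449, scored 27 (18.3 to 37.9) and 34 (26.2 to 43.6).

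The last 2 formed a close pair that was seen alike in both libraries, with midpoints 813 bp apart in replicate 1 and 814 bp apart in replicate 2. The member nearer to PHYHIPL was the higher one in both. In replicate 2 the intervals of the pair do not overlap, and in replicate 1 they do. Of the 10 recurring sites, these 2 (20%) had another recurring site within 1 kb, against 39 of 2905 such regions over the genome (1.34%). Within 10 kb it was the same count of 2 (20%) against 10.3%, and within 100 kb it was 8 of 10 (80%) against 39.9%. The window was picked because many peaks recurred there, so nothing is read from these differences. Calling kept neighbours at least 284 bp apart in replicate 1 and 452 bp apart in replicate 2, so a tighter pair could not be seen.

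On the PHYHIPL side, the site at 60868873 to 60869099 lay 67 kb before the gene start and scored 19 in replicate 1 (12.2 to 28.9) and 23 in replicate 2 (16.4 to 30.7). The site at 60937678 to 60937904 lay about 2 kb after that start, the closest of the 15 sites to the start of BICC1 or PHYHIPL. It scored 13 in replicate 1 (7.66 to 21.8) and 23 in replicate 2 (16.4 to 30.7). Its 2 scores were the most unequal among the recurring sites, with a log2 ratio of replicate 2 over replicate 1 of 0.82, although their intervals overlap. It was the last peak of both lists in the window. The next ones lay 302 kb after the end of PHYHIPL and scored 12 and 8.

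In this stretch 2 more peaks were called in replicate 2 alone. One lay between the close pair and the strongest site, at 60797369 to 60797595, with a score of 13 (8.33 to 19.3). The other lay 27 kb before PHYHIPL, at 60908505 to 60908731, with a score of 9 (5.36 to 14.7). Together with those at 60315743 and 60722942 they brought the peaks of replicate 2 alone to 4, with a median score of 11. The lowest score of a recurring site in replicate 2 was 14, which 1 peak of replicate 2 alone also had, and the other 3 were lower. Replicate 1 had 1 unpaired peak, below all 10 paired ones.

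Summed scores showed how the signal was divided along the locus. The stretch between the genes held 55.8% of the summed score in replicate 1 and 55.6% in replicate 2. BICC1 itself held 29.7% and 26.3%, the upstream site 10.6% and 11.9%, and the site in PHYHIPL 3.94% and 6.23%. The strongest site alone made up 30.6% of the summed score in replicate 1 and 22.0% in replicate 2. The 3 highest of the 10 recurring sites were the same in both replicates, namely those at 60833349, 60397243 and 60228412, and held 61.2% and 53.5% of the score of these 10.

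From the third site on, the order of neighbouring sites was not resolved. The intervals of the third and the fourth site overlap in both replicates, so the 3 highest are not set apart from the rest. In replicate 2 the fourth site, at 60767223 with a score of 34 (26.2 to 43.6), still stood clear of those at 60422192, 60567637 and 60766409, with scores of 17, 17 and 14 (highest bound 23.8). In replicate 1 the intervals separated the first site from the second and the second from the third, and from there on each interval overlapped the next. In replicate 2 the first site was separated from its neighbour, and the sites at 60397243 and 60228412, with scores of 49 and 44, were not. A set of 3 sites tied at 23 in replicate 2, those at 60754555, 60868873 and 60937678. 

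Set against the lists as a whole, the peaks of the locus had a median score of 19 in replicate 1 (quartiles 13 and 31), against 12 over all 5060 peaks (8 and 18). In replicate 2 the median was 20 (14 and 31.2), against 11 over all 4955 peaks (9 and 16). Of the locus peaks, 10 of 11 in replicate 1 and 12 of 14 in replicate 2 were at or above the list median. Over the whole lists it was 2656 of 5060 and 2702 of 4955. The 90th percentile, at a score of 29 in the first list and 24 in the second, was reached by 3 locus peaks (27.3%) and 4 locus peaks (28.6%), against 11.3% and 10.2% of all peaks, since many peaks tie at the limit. Scores and peak calls come from the same tags as the choice of the window, so these comparisons carry no test.

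**Figure D2:**
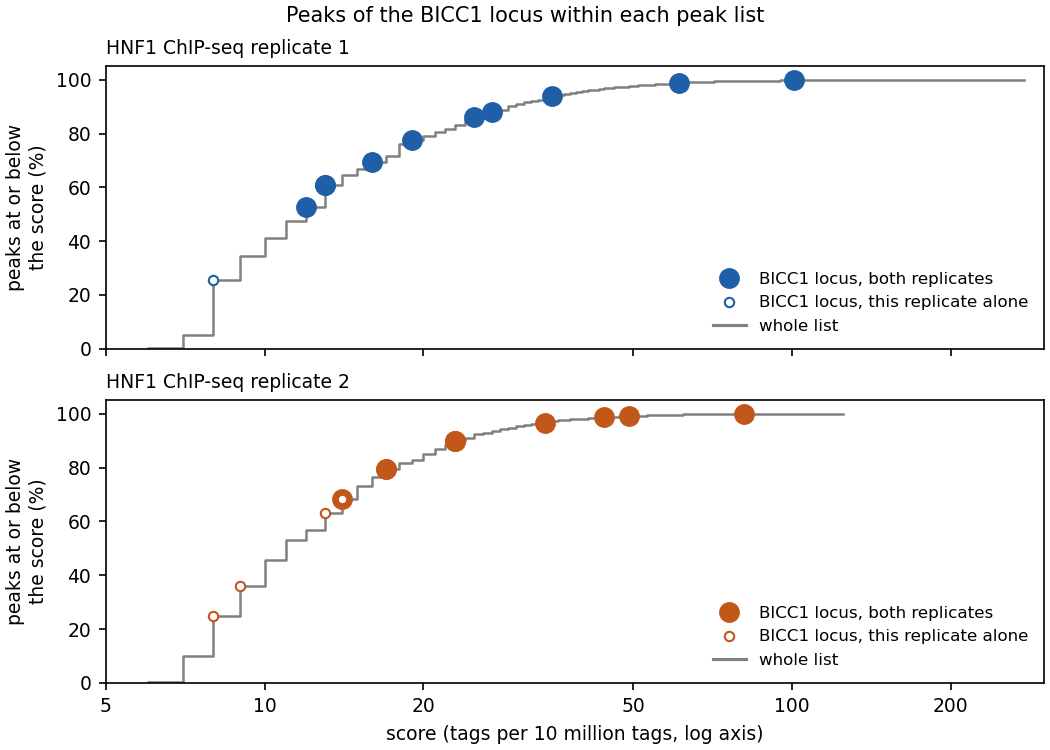
Share of peaks at or below a score (%, vertical axis) against the score (tags per 10000000 tags, log axis) in replicate 1 and replicate 2, with the peaks of the BICC1 locus set on the line of the whole list. Filled points are locus peaks found in both replicates and open points those found in 1, equal scores coincide, and all filled points of replicate 1 lie at a score of 12 or more.

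The replicates gave like positions and like orders for the recurring sites. Midpoints of the 2 peaks of a site were between 4 and 53 bp apart, with a median of 27 bp, against 27 bp over all 2907 pairs. In 9 of the 10 sites the narrower replicate 1 peak lay wholly inside that of replicate 2, and at 60567637 the overlap was 132 bp of its 143 bp. Across the 10 sites Pearson's r of the scores was 0.97 and Spearman's rho was 0.94, against 0.67 and 0.60 over all 2907 pairs. These are descriptions of sites that share 1 locus and the same libraries, and with 10 points the highest site weighs heavily in r.

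Scores were more often higher in replicate 2 than in replicate 1 at these sites. The log2 ratio of replicate 2 over replicate 1 had a median of 0.25 over the 10 sites, against -0.17 over all pairs, and ranged between -0.32 and 0.82. It was above 0 at 7 of the 10 sites, against 1051 of 2907 pairs. The 3 sites with a ratio below 0 were those at 60833349, 60397243 and 60754555. Replicate 1 tags were counted over 142 bp and replicate 2 tags over 226 bp, so the ratio of a site cannot be told apart from that setting. The setting was the same for all 2907 pairs, and the difference between the locus and all pairs was not tested. At all 10 sites the intervals of the replicates overlap.

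**Figure D3:**
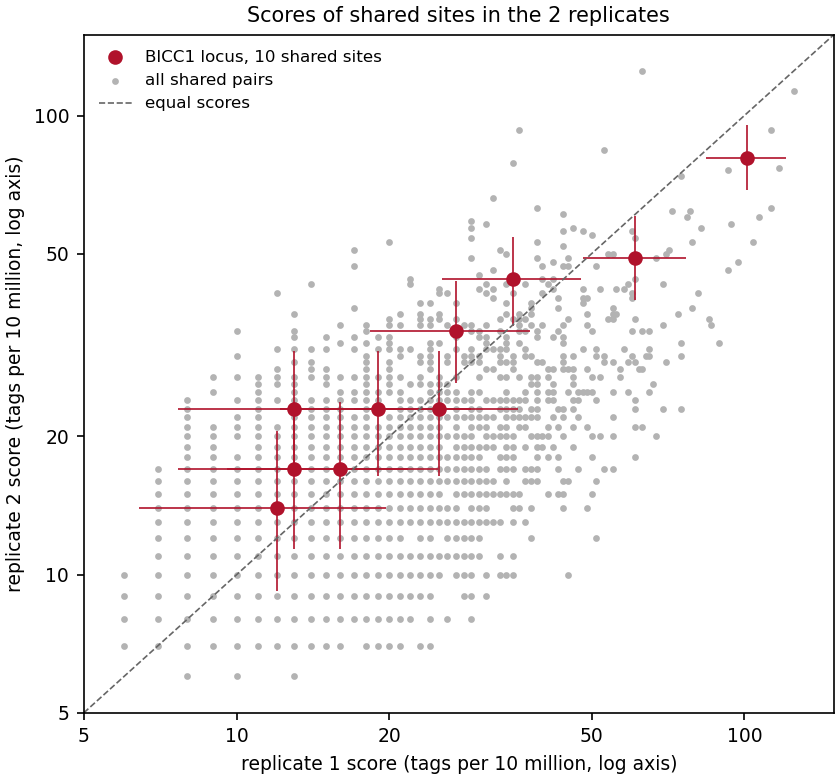
Replicate 2 score against replicate 1 score (tags per 10000000 tags, log axes) for the 10 recurring sites of the BICC1 locus (large points with Poisson 95% intervals) and for all shared pairs (small points), with the line of equal scores. Of the 10 sites 7 lie above the line and 3 below it, among them the highest with scores of 101 and 81.

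Among windows of the same length, 900 kb, that do not overlap, 3 held 10 or more recurring regions, against a mean of 0.915 per 900 kb. These were the BICC1 locus with 10, a group on chromosome 2 with 11 and a group on chromosome 5 with 10. In the BICC1 locus the strongest site held 31.4% of the score of the recurring sites in replicate 1 and 24.9% in replicate 2. On chromosome 2 these shares were 19.8% and 17.0%, and on chromosome 5 they were 24.4% and 19.3%. A less dense group elsewhere on chromosome 10, with 8 recurring regions, had 31.5% and 25.5%, so such shares were not particular to the BICC1 locus. The median score of recurring sites at BICC1 was 22 in replicate 1 and 23 in replicate 2, against 33 and 28 on chromosome 2 and 15.5 and 20.5 on chromosome 5. The median gap at BICC1 was 66.1 kb, against 18.7 kb on chromosome 2 and 58.4 kb on chromosome 5. Closely spaced recurring sites were not particular to BICC1. Counted from the first site of the group, chromosome 2 had sites at 204, 205 and 206 kb, and chromosome 5 had sites at 454 and 455 kb. The differences between these groups were not tested, since sites are not replicates and all the groups were picked for their counts.

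**Figure D4:**
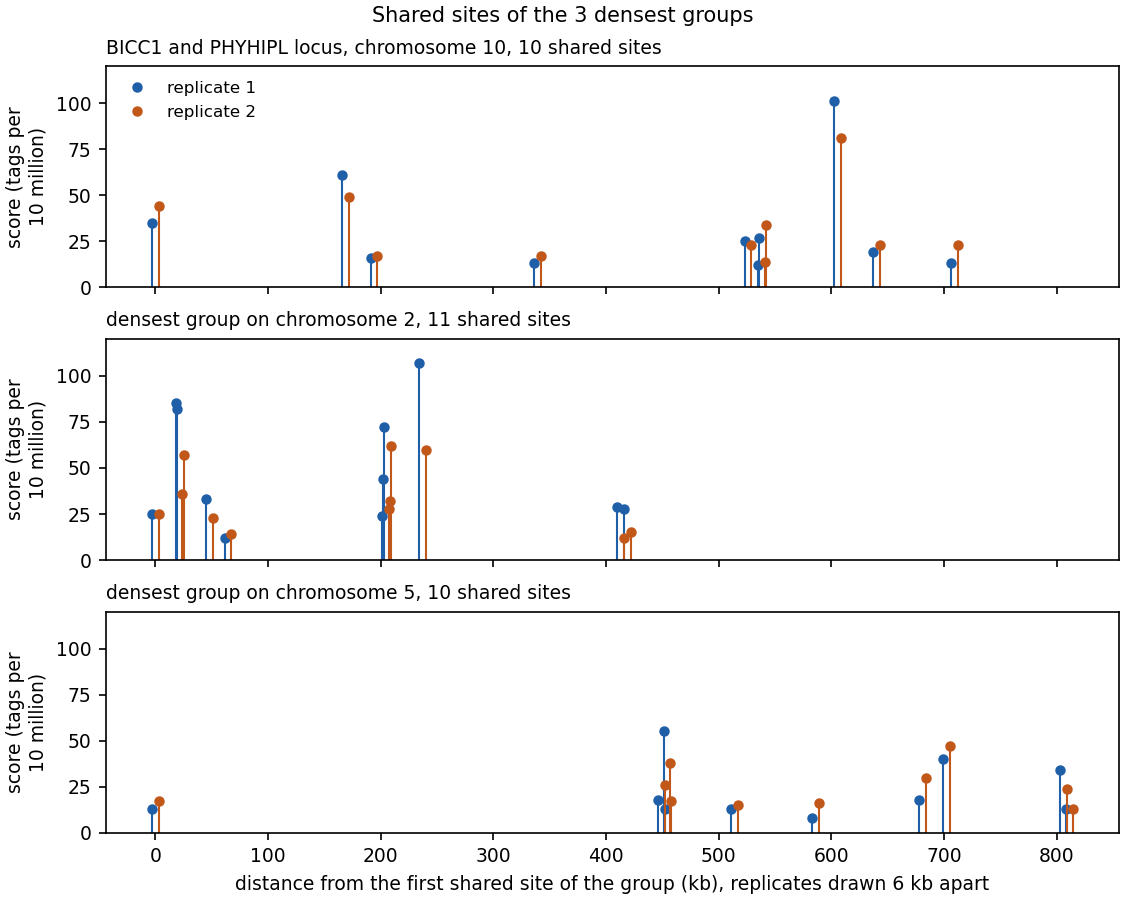
Scores of the recurring sites (tags per 10000000 tags, vertical axes from 0) against the distance from the first site in kb, for the BICC1 locus (top) and the densest groups on chromosome 2 (middle) and chromosome 5 (bottom), with replicate 1 and replicate 2 drawn side by side. The BICC1 locus has 10 sites over 709 kb, the chromosome 2 group has 11 sites over 419 kb, and the chromosome 5 group has 10 over 811 kb. The highest scores in replicate 1 and replicate 2 are 101 and 81 at BICC1, 107 and 62 on chromosome 2, and 55 and 47 on chromosome 5.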

How the data were processed

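Per the submitters' processing notes, Bowtie 1.0.0, HOMER 1.2 and the hg19 build were used, without stated roles. Per the file headers, the authors called peaks on each immunoprecipitation separately with HOMER findPeaks in factor mode. Required were a false discovery rate of 0.001 and a 4-fold excess of tags over input and over the surrounding 10000 bp. Fragments were taken as 76 bp long in replicate 1 but as 226 bp long in replicate 2, so equal tag densities could pass in one list and fail in the other. The score deposited by the authors is a tag count scaled to 10000000 tags and rounded, with 1 tag worth 0.838 in replicate 1 and 0.541 in replicate 2. Scores of a list sum to 1.002 and 1.006 times the scaled tags in peaks of the headers. Fold over input was not used here, and start positions were moved to count from 1.

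Window and gene limits were taken from the definition of the locus. Tags per peak were the score divided by the worth of 1 tag, rounded, with exact Poisson 95% intervals scaled back. Shares carry no interval, since the peaks of 1 locus are not replicates. No test was run on the locus. The code that counts overlaps was checked on simulated lists of known overlap, which tests the counting and not the locus. Sites and genes were named by rule: all peaks of the window, BICC1, PHYHIPL and their neighbours. The members and lists were chosen with earlier results of these data known. Python 3.11.15, numpy 2.4.6, pandas 2.3.3, scipy 1.17.1 and matplotlib 3.10.9 were used.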

Additional observations from a re-analysis of the deposited data

How the results depend on the processing

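The 10 recurring sites of the BICC1 locus were counted again under 6 other settings. The count was 10 with 50% of both peaks overlapping, with midpoints within 100 bp, with peaks up to 500 bp apart, with peaks at or above the list median alone and with a window 100 kb wider on each side. It was 9 with a window 100 kb narrower on each side. With peaks at or above the list median alone, which drops the 1 unpaired replicate 1 peak, the share of replicate 1 peaks with a partner was 100%, against 90.9% with all peaks, and that of replicate 2 was 83.3%, against 71.4%. The median score of the locus was 22 in replicate 1 and 23 in replicate 2 with either the better scored or the recurring peaks alone. No paired analysis was possible because no peak list belongs to an input and each immunoprecipitation has a single one, and leaving out a replicate removes the comparison for the same reason. The planned motif count at the sites was not run, since no hg19 genome was used. The effect of depth on the peaks seen in 1 replicate was not tested, as the lists hold no reads.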
